A study of Homo sapiens with 8 samples.

Results

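A549 cells, a line established from a carcinoma of the human lung, were treated with EEDS, an extract of D. sophia seeds made with ethanol, or with helveticoside, a cardiac glycoside that the study isolated from that extract. The comparison described here is the last dose step of EEDS, from 5 to 20 μg/mL. It asks which genes respond only at the top dose, which had already reached their level at 5 μg/mL, and which turned back. A gene was a member when the scanner software called it well above background both at 5 and at 20 μg/mL. Of 19053 genes with a named probe, 13070 (68.6%) were members. A member was also placed by its dose course when it was well above background on the vehicle control, which held for 12868 members.

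Cells were exposed to vehicle or to 1.25, 5 or 20 μg/mL EEDS, and in a second series to vehicle or to 3.75, 15 or 60 nM helveticoside. Exposure is given as 24 h in the methods for the arrays and as 48 h in the labels, in a text on a viability assay. For each dose, RNA of 3 cultures was pooled in equal amounts and hybridized to 1 single-dye array, which gave 8 arrays. There are no replicates, so no p-value is given and the small number of arrays limits the precision. A gene was counted as up-regulated or down-regulated when its signal differed at least 2-fold between the arrays (1 on the log2 scale).

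Probe spots at 5 and 20 μg/mL had a median signal of 186 and 199 over a median local background of 27, with no saturated spot. Within an array, the spots of a probe differed by a median SD of 0.06 on the log2 scale. The scanner software's own error put a median error of 0.20 on the log2 ratio of the step, with a 95th percentile of 0.30. All 1342 genes past 2-fold exceeded 2 such errors, but errors of this size make that follow almost from the 2-fold limit itself. These errors cover error within an array and not between cultures. On the arrays of the middle and top dose, the lowest signal of a member was 27.6 and 28, and the highest of a gene that missed the call was 40.9 and 43.6. All 11 markers of A549 epithelium, among them KRT7, KRT18 and AKR1B10, were well above background on both arrays and none passed 2-fold. Of 17 markers of other cell types, 6 were well above background, and of these COL1A1 (1.21), PTPRC (1.12) and ABCA3 (-1.17) passed 2-fold at the step on the log2 scale. Their part in the results was not tested.

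Much of what a stressed cell transcribes belongs to a few programs with known order. Immediate early genes, such as EGR1 and FOS, encode transcription factors and are switched on without new protein synthesis. The ATF4 program follows phosphorylation of a translation initiation factor, when the ATF4 message is translated better and ATF4 raises genes for the synthesis and import of amino acids. NF-kappa B raises cytokine genes together with its own inhibitors. Cardiac glycosides bind the sodium pump, and at high dose they are known to lower protein synthesis in human cells.

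The promoters of 4 genes that hold a searched motif are shown, and most promoters of their courses did not hold it. CArG boxes were in 1.60% of the continuing rises and kappa B sites in 9.72% of the late rises. The ATF4 element was in 3 of 29 promoters of genes that rose then fell. EGR1 rose at both steps, IRF1 rose at the top dose alone, and CHAC1 and BCAT1 rose at 5 μg/mL and fell back at 20 μg/mL. Each sequence is the 250 bases before the start of the gene on its own strand, from RefSeq (GRCh38.p14), at chr5:138465229-138465478 on the plus strand for EGR1, chr5:132490774-132491023 on the minus strand for IRF1, chr15:40953221-40953470 on the plus strand for CHAC1 and chr12:24949102-24949351 on the minus strand for BCAT1. Capitals mark CArG boxes, the letters to which serum response factor binds, in EGR1, a kappa B site in IRF1, and the ATF4 element TGATGNAA in CHAC1 and BCAT1, each searched on both strands.
EGR1: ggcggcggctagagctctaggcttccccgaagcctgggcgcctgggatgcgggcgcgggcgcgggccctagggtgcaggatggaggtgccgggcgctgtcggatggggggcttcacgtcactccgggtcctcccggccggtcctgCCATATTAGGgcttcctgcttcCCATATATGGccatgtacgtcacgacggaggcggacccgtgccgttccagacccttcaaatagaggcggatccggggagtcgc
IRF1: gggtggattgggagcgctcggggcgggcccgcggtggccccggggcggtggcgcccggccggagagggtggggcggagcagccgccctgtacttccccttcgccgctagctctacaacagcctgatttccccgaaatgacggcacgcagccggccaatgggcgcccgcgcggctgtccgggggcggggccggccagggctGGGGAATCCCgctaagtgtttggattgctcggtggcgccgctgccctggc
CHAC1: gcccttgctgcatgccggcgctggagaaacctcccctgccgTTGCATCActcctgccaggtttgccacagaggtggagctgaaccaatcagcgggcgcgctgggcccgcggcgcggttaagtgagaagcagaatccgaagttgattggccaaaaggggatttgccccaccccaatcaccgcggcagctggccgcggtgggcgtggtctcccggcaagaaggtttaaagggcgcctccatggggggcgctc
BCAT1: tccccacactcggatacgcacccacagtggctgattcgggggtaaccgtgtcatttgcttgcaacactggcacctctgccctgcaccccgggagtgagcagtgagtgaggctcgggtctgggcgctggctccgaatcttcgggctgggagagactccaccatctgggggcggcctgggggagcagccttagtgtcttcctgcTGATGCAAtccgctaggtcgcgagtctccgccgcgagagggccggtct
EGR1 holds a CArG box from position -105 and another from -83, IRF1 a kappa B site from -50, and the ATF4 element begins at -209 in CHAC1, on the opposite strand, and at -48 in BCAT1.

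At the step from 5 to 20 μg/mL, 644 genes were up-regulated (4.93% of the members) and 698 were down-regulated (5.34%). Together these were 10.3% of the members. Past 4-fold there were 65 up-regulated (0.497%) and 47 down-regulated genes (0.36%), together 0.857%. The median log2 ratio of the step was -0.01 over all members, with an SD of 0.63 and 5th and 95th percentiles of -1.03 and 0.99. Among the 12868 members measured on the vehicle control, 807 passed 2-fold from vehicle to 1.25 μg/mL, 2003 from vehicle to 5 μg/mL, 1297 from 5 to 20 μg/mL and 3990 from vehicle to 20 μg/mL. These numbers share arrays with each other. Outside the members, 328 genes were well above background only at the top dose, 411 only at the middle dose and 5244 on neither array. RNA was taken from whole cultures, so less RNA per cell and fewer cells of a kind cannot be told apart.

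Dose courses were set by the log2 ratio of 5 μg/mL over vehicle and that of 20 over 5 μg/mL. A late gene had moved by less than 0.5 at 5 μg/mL and passed 2-fold at the step. A continuing gene passed 2-fold at both in 1 direction, and a saturating gene passed 2-fold at 5 μg/mL and then moved by less than 0.5. A reversing gene passed 2-fold at both in opposite directions. There were 260 late rises (2.02%) and 237 late falls (1.84%), 154 continuing rises (1.2%) and 193 continuing falls (1.5%). Saturating genes were more numerous, with 494 rises (3.84%) and 486 falls (3.78%), and reversing genes fewer, with 46 that rose then fell (0.357%) and 24 that fell then rose (0.187%). Another 5140 members (39.9%) moved by less than 0.5 at both, and 5834 (45.3%) lay between these limits. Since both ratios hold the 5 μg/mL array, an error of that array moves them in opposite directions, so the courses are given as a description. The 1.25 μg/mL array and the helveticoside arrays were not used to set them.

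**Figure D1:**
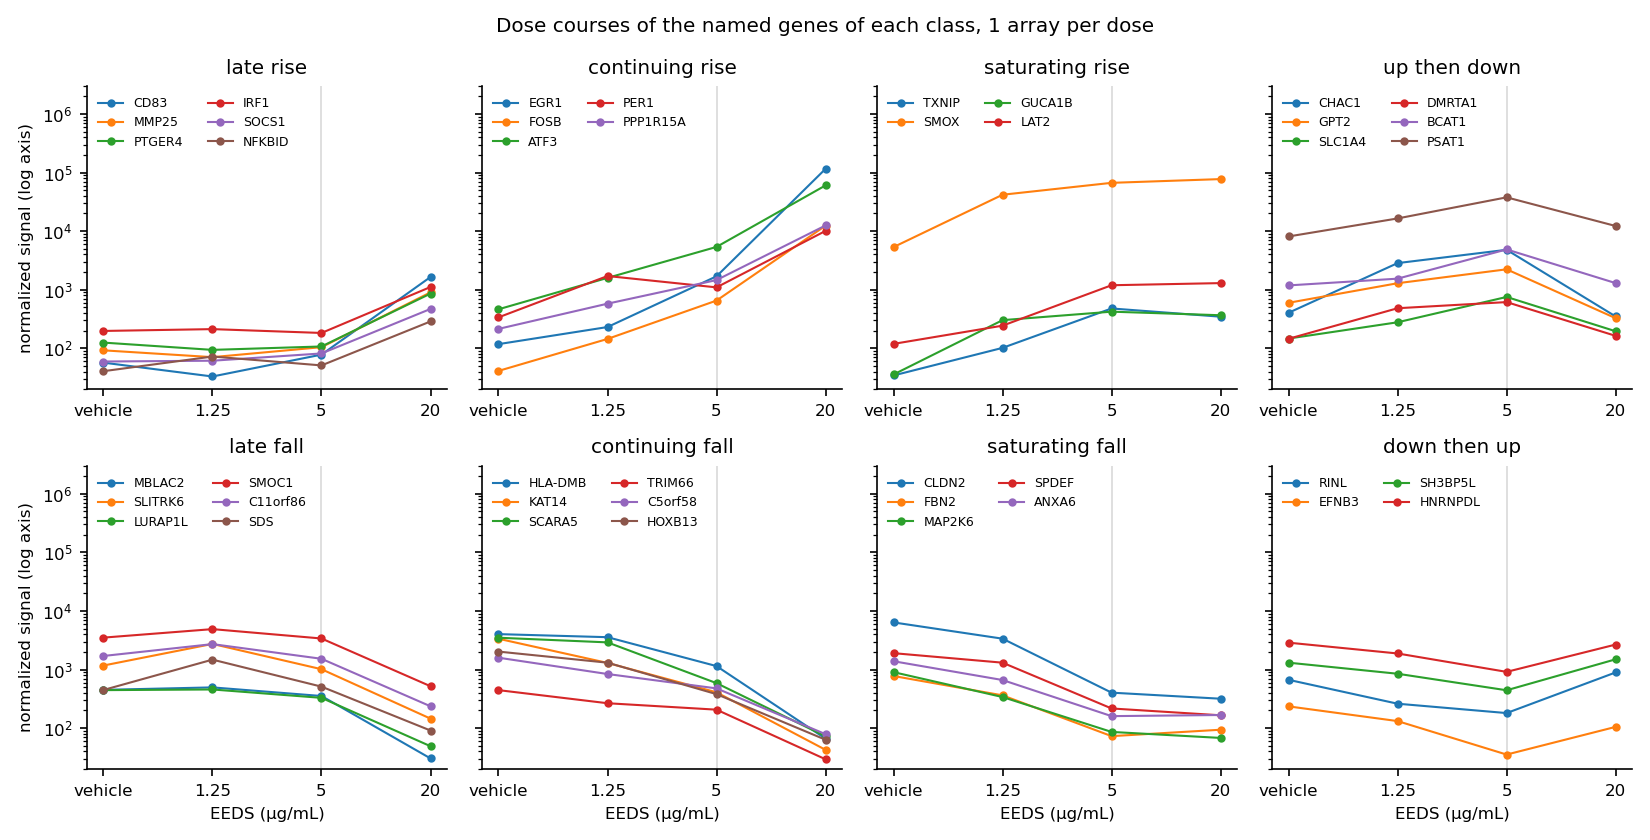
Normalized signal (log axis) against EEDS dose for up to 6 named genes of each dose course, with 1 point per array and a grey line at 5 μg/mL. By the rule that set the courses, late genes have like signals on the vehicle control and at 5 μg/mL and move at 20 μg/mL. By the same rule, saturating genes are level after 5 μg/mL, and reversing genes turn at 5 μg/mL.

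In what follows, 4 signals given for a gene are those on the vehicle control and at 1.25, 5 and 20 μg/mL, in that order. They are normalized signals of 1 probe and are not comparable between genes.

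Immediate early genes were 5 of the 10 largest rises of the step. EGR1, a zinc finger transcription factor, had signals of 118, 231, 1694 and 115737. Its log2 ratio was 6.09 at the step, after 3.85 from vehicle to 5 μg/mL, the largest rise among all members. FOSB, a subunit of AP-1, went through 41.1, 144, 653 and 12395, a rise of 4.25 at the step. FOS itself moved differently, with 615, 1497, 922 and 21362: its signal at 5 μg/mL lay below that at 1.25 μg/mL, and its log2 ratio at the step was 4.53. ATF3, a stress-induced factor, rose by 3.49 on the probe used (463, 1592, 5376 and 60312), and the lowest of its 4 probes gave 1.01.

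Of the 33 genes in the list of immediate early factors, 30 were members. Up-regulated were 22 of them and down-regulated none, against 4.93% and 5.34% of all members, and all 30 had a ratio above 0. Their median log2 ratio at the step was 1.88, against -0.01 for all members. Before the step, from vehicle to 5 μg/mL, the median was 1.02. The list split by course. EGR1, FOSB, FOSL1, JUN, JUNB, ATF3, IER2, IER5, KLF4, MAFF, BTG1 and BTG2 were continuing rises. ZFP36, FOSL2, NR4A1 and KLF2 were late rises. ZFP36, which encodes a protein that promotes decay of cytokine messages, had signals of 8932, 11951, 10754 and 52219, and its signal at 5 μg/mL was within 0.27 of the vehicle control on the log2 scale. NR4A1, an orphan nuclear receptor, went through 130, 154, 114 and 540. MYC, IER3 and ZFP36L1 did not pass 2-fold at the step, with log2 ratios of 0.89, 0.91 and 0.79.

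Of the 202 members not well above background on the vehicle control, which had no dose course, 41 were up-regulated and 4 down-regulated at the step. The shares of all members were 4.93% and 5.34%. A dim gene that falls below the call at 20 μg/mL is not a member, so the filter favors rises here. The counts are therefore not a result about these genes. ARC and EGR4 were among the up-regulated ones. ARC rose by 3.22 at the step, from 38.9 to 364, and EGR4 by 2.11, from 52.7 to 228. The 38.9 of ARC lay below 40.9, the highest signal that missed the call at 5 μg/mL. NOCT, a clock-regulated phosphatase gene, rose by 3.13, from 45.6 to 399. EGR2, a relative of EGR1, was not well above background at 5 μg/mL. It had signals of 8.22, 8.30, 19.2 and 1687 and was at least 62.1-fold higher at 20 than at 5 μg/mL, as set against the lowest signal well above background on the 5 μg/mL array. TENT5C (40.0, 8.81, 19.7 and 236) and C17orf99, which stood at 206 at the top dose, were at least 8.68-fold and 7.60-fold higher by the same rule. NAB2, a corepressor of the EGR proteins, went through 3912, 4717, 5574 and 31612 and rose by 2.50 at the step. Of 13 MAP kinase phosphatase and Sprouty genes measured, whose products restrain MAP kinase signaling, 6 were up-regulated, 6 did not pass 2-fold and 1 was down-regulated. DUSP10 and DUSP1 rose at both steps, by 1.72 and 1.18 at this one. DUSP8 and SPRY2 rose late, by 1.52 and 1.14. SPRY1 fell late, by 1.25 (147, 164, 111 and 46.7). None of the 13 genes was down-regulated with the signal as scanned, without background subtraction, or in the authors' processed table. The second DUSP8 probe gave 0.43.

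Outside this list, the largest late rises were those of CD83, MMP25, PTGER4, IRF1, SOCS1 and NFKBID. CD83, a surface protein known from mature dendritic cells, had signals of 56.9, 33.0, 78.0 and 1648. It had a log2 ratio of 0.46 at 5 μg/mL and of 4.40 at the step. MMP25, a membrane-bound matrix metalloproteinase, rose by 3.11 (92.3, 70.6, 105 and 901) and PTGER4, a receptor of prostaglandin E, 7.99-fold (125, 94.0, 107 and 859). IRF1, an interferon regulatory factor, kept to 198, 212 and 183 up to 5 μg/mL and stood at 1113 at 20 μg/mL. SOCS1, an inhibitor of cytokine receptors, went through 59.5, 61.4, 81.7 and 470. That the signal at 20 μg/mL lay above those on the vehicle control and at 5 μg/mL follows from the rule for late rises. The array of the lowest dose was not used by that rule. For each of these 5 genes, its signal lay below that at 20 μg/mL as well.

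Of 17 NF-kappa B subunit and inhibitor genes measured, 9 were up-regulated, 8 did not pass 2-fold and none was down-regulated, and the median log2 ratio was 1.04. TNFAIP3, an enzyme that ends NF-kappa B signaling, was a continuing rise, with 58.7, 98.2, 187 and 1380 (2.88 at the step). The inhibitor gene NFKBIE (2.31) and the subunit genes REL (1.87) and RELB (1.08) were continuing rises too. NFKBIA, which encodes the main cytoplasmic inhibitor, was a late rise, with 16842, 26069, 16309 and 42544, as was NFKBID, with 40.7, 72.3, 51.0 and 287. Among the chemokines and cytokines, 9 of 15 measured were up-regulated and none down-regulated, with a median of 1.06. CXCL1 (270, 793, 1005 and 3141), CXCL2, CXCL3, CLCF1 and IL11 were continuing rises, by 1.64, 1.53, 1.06, 1.53 and 1.31 at the step. CXCL3 had 0.61 with the signal as scanned, without background subtraction. CSF2 and CCL20, which the vehicle array did not show well above background, rose by 2.18 and 2.11. CXCL5 had risen before the step and then stood still, with 4211, 12164, 13948 and 10572 and a log2 ratio of -0.40.

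PER1, a repressor of the circadian clock, had signals of 338, 1712, 1096 and 10091 and a log2 ratio of 3.20 at the step. Of 15 clock genes measured, 6 were up-regulated and none down-regulated. NR1D1, which encodes a nuclear receptor of the clock, rose by 2.53 (132, 219, 359 and 2066). CRY2 rose late, by 2.29 (586, 856, 661 and 3223), and CRY1 at both steps, by 1.34 at this one. Among 13 CCN and YAP target genes, 6 were up-regulated and none down-regulated, with a median of 0.96. CCN1, a secreted matrix protein, rose by 2.11 (5598, 8799, 23451 and 100963), and F3, tissue factor, rose late, by 1.58. Of 26 genes of p53 and its targets, 5 were up-regulated and none down-regulated, with GADD45A at 2.14 (746, 1113, 3121 and 13797) and PLK2, a late rise, at 1.74. AREG and EGFR rose by 1.31 and 1.53. EGFR was measured by 3 probes, of which the lowest gave -0.26.

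Of 61 replication-dependent histone genes measured, 12 were up-regulated, 49 did not pass 2-fold and none was down-regulated, 59 had a ratio above 0, and the median was 0.60. From vehicle to 5 μg/mL the median had been -0.02. H2BC26 went through 157, 110, 167 and 622 (1.90 at the step), and H3C15 through 30414, 19562, 22975 and 70469 (1.62). Copies of these genes are nearly identical, so a probe may bind RNA of several. Mitotic genes, by comparison, had a median of 0.51 with 0 of 29 past 2-fold.

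**Figure D2:**
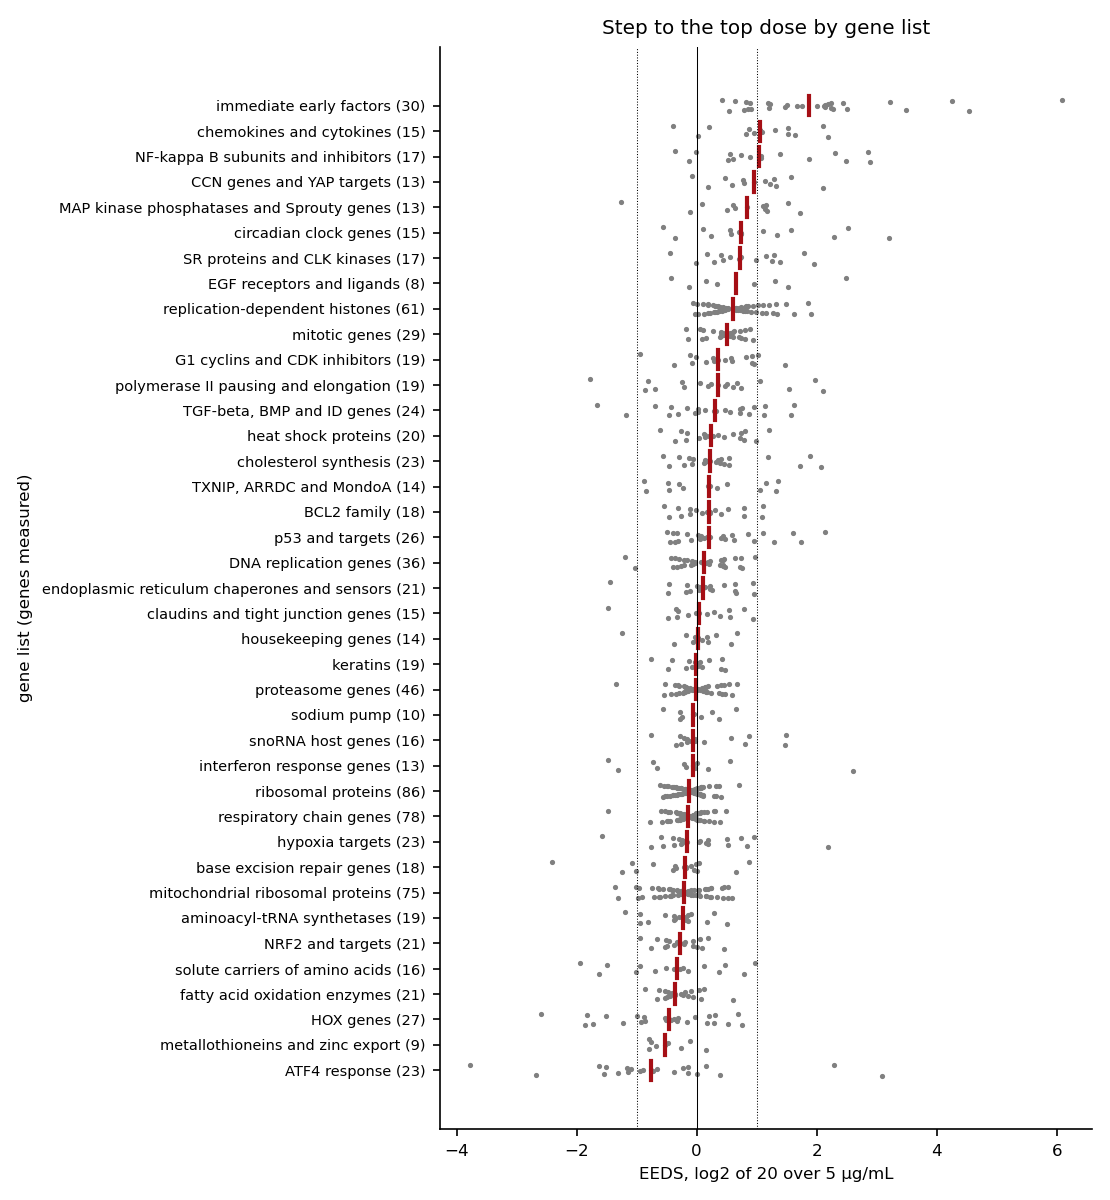
Log2 ratio of 20 over 5 μg/mL EEDS on the x axis for the measured members of 39 gene lists, 1 grey point per gene, with the median of each list as a red bar and dotted lines at 2-fold. Immediate early factors have the highest median, 1.88, and the ATF4 response the lowest, -0.76.

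Of 23 ATF4 response genes measured, 9 were down-regulated at the step, 2 were up-regulated and 12 did not pass 2-fold, and 7 had risen then fallen. CHAC1, which breaks down glutathione, had signals of 404, 2846, 4802 and 349. It was 3.57 above the vehicle control at 5 μg/mL on the log2 scale and fell by 3.78 at the step, to within 0.5 of the vehicle control. The median of the list was -0.76 at the step after 1.65 from vehicle to 5 μg/mL. PSAT1 and PHGDH, enzymes of serine synthesis, followed CHAC1, with 8111, 16462, 37725 and 12234 for PSAT1 and 3604, 4776, 16462 and 5627 for PHGDH. TRIB3, a pseudokinase that damps ATF4, went through 19406, 48538, 77400 and 31181. NUPR1, ALDH1L2 and CEBPG reversed as well, by -1.16, -1.15 and -1.09.

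STC2, a secreted glycoprotein, was not well above background on the vehicle control and went through 125, 494 and 173 at the 3 doses. DDIT4, an inhibitor of the mTOR pathway, had risen little at 5 μg/mL (12746, 23621, 18692 and 2919) and fell by 2.68 at the step, to below the vehicle control. ASNS, asparagine synthetase, did not pass 2-fold at the step (-0.90) and stood 2.76 above the vehicle control at 20 μg/mL on the log2 scale, with 12231, 31606, 154488 and 82975. The amino acid carriers SLC7A5 and SLC7A1 were saturating rises, with -0.22 and -0.15 at the step. ATF4 itself had signals of 58388, 90312, 91600 and 119975 and a log2 ratio of 0.39.

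The stress genes at the other end of the ATF4 list went the opposite way. DDIT3, a transcription factor known from cell death under stress, had signals of 147, 367, 831 and 4070 and rose by 2.29 at the step. PPP1R15A, which brings the phosphatase to the initiation factor and so restores translation, had signals of 214, 578, 1461 and 12491 and rose by 3.10. Both had risen with the amino acid genes from vehicle to 5 μg/mL, by 2.50 and 2.77. Chaperones and sensors of the endoplasmic reticulum, 21 genes, moved little, with a median of 0.11, none up-regulated and 1 down-regulated.

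The 46 genes that rose then fell held 7 ATF4 response genes and 3 amino acid carriers, SLC1A4, SLC6A9 and SLC1A5. GPT2, the mitochondrial alanine transaminase, had signals of 598, 1291, 2230 and 327. BCAT1, the cytosolic branched-chain transaminase, went through 1185, 1544, 4871 and 1296. SLC1A4, a carrier of neutral amino acids, went through 147, 278, 752 and 195, and the glycine carrier SLC6A9 through 1002, 1748, 4476 and 1452. CBS, the first enzyme from homocysteine to cysteine, fell by 1.60 at the step and PCK2, the mitochondrial PEP carboxykinase, by 1.56. BCAT1 and PCK2 were measured by a second probe, which gave -0.52 and -0.35. By name, the ones outside amino acid metabolism included JDP2 (-2.20), a repressor of AP-1, FOXL1 (-2.05) and FOXQ1 (-1.53), forkhead factors, DMRTA1 (-1.91), HOXB9 (-1.51) and the RNAs DICER1-AS1 (-1.94) and LINC-PINT (-1.39). Of the 46 genes, 40 (87.0%) were protein-coding, against 96.1% of all members.

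At 20 μg/mL, 25 of these 46 genes were within 0.5 of the vehicle control on the log2 scale, 5 were still past 2-fold above it and 1, JDP2, was past 2-fold below it. At 1.25 μg/mL, 44 of the 46 were already above the vehicle control, 36 of them by more than 0.5, with a median of 1.07. The 1.25 μg/mL ratio shares the vehicle array with the ratio that set the course.

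**Figure D3:**
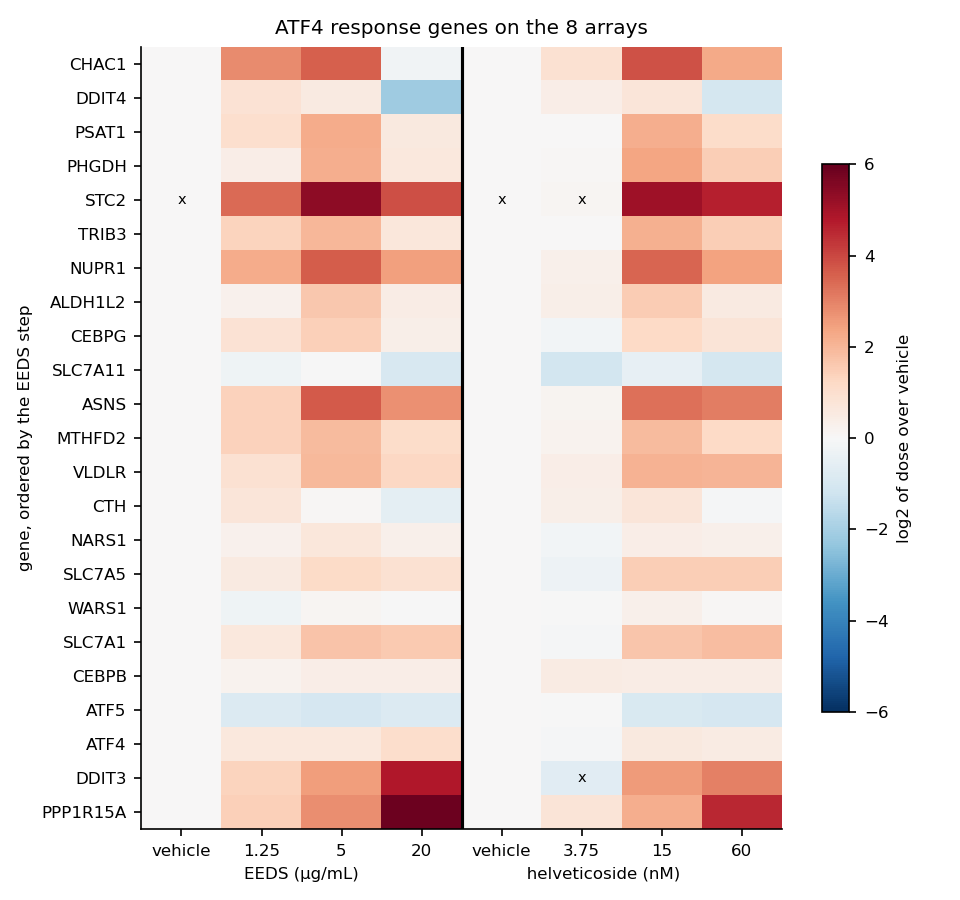
Log2 ratio to the vehicle control of the same series (color) for the 23 measured ATF4 response genes on the 8 arrays, ordered by the EEDS step, with x where the array was not well above background. CHAC1, at the top, is at 3.57 at 5 μg/mL EEDS and back near 0 at 20 μg/mL, while DDIT3 and PPP1R15A, at the bottom, are highest at 20 μg/mL.

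The 24 genes that fell then rose held 4 genes of splicing factors. SRSF7 had signals of 10654, 4753, 4060 and 13978, SRSF2 of 14571, 7663, 4818 and 11498 and SRSF3 of 32025, 20288, 15900 and 35412, and TRA2A of 295, 154, 144 and 559. In each, the signal was lowest at 5 μg/mL and the one at 20 μg/mL was within 2-fold of the vehicle control. Of 17 genes of SR proteins and CLK kinases, 6 were up-regulated at the step and none down-regulated, with a median of 0.73, and 4 had fallen then risen. HNRNPDL (2876, 1881, 913 and 2670) had a step of 1.55 on the probe used and 0.41 on its other probe.

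SH3BP5L (1310, 848, 443 and 1495) passed its vehicle signal again by 0.19 on the log2 scale. RINL, related to exchange factors of Rab proteins, had the largest rise of the 24 genes (668, 261, 181 and 893; 2.30). EFNB3, an ephrin, went through 235, 132, 35.4 and 105, and with the signal as scanned its step was 0.65. Its 35.4 lay below 40.9, the highest signal that missed the call at 5 μg/mL. At 20 μg/mL, 15 of the 24 genes were within 0.5 of the vehicle control and 5 were still past 2-fold below it.

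Genes that kept falling were led by HLA-DMB, a peptide loading factor of MHC class II, with 4024, 3567, 1145 and 66.2, and fell by 4.11 at the step on the log2 scale. KAT14, a subunit of a histone acetyltransferase complex, had 3355, 1296, 409 and 42.6, and SCARA5, a scavenger receptor that takes up ferritin, had 3492, 2909, 586 and 72.4. TRIM66 (445, 266, 207 and 29.4) and C5orf58 (1593, 839, 477 and 78.8) fell by 2.81 and 2.60. The last signals of TRIM66 and KAT14 lay below 43.6, the highest signal that missed the call at 20 μg/mL. HOXB13 fell by 2.59 (2025, 1310, 380 and 63.4). Of 27 HOX genes measured, 6 were down-regulated and none up-regulated at the step (6 and 1 in the authors' table). By course, 1 of the 27 was a continuing fall, 1 was a late fall and 1 rose then fell. HEXIM2, an inhibitor of the elongation factor P-TEFb, went through 18189, 10338, 3258 and 951. Of 18 base excision repair genes, 4 were down-regulated and none up-regulated (2 and none with the signal as scanned, 2 and 1 in the authors' table), with the glycosylase genes NTHL1 at -2.40 (6320, 4262, 1536 and 290), NEIL3 at -1.24, MUTYH at -1.07 and MPG at -1.01.

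By definition, late falls began from like signals on the vehicle control and at 5 μg/mL. MBLAC2 had signals of 450, 496, 354 and 30.4, the last of which lay near the lowest signal called well above background. SMOC1, a secreted calcium-binding protein, held at 3508, 4897 and 3389 and stood at 519 at 20 μg/mL. SLITRK6, a transmembrane protein of neurons, had 1171, 2738, 1013 and 145 on the probe used, a fall of 2.80, and its other probe fell by 0.63. LURAP1L (445, 457, 329 and 49.1) and C11orf86 (1705, 2718, 1526 and 236) fell late as well, by 2.74 and 2.69. SDS, serine dehydratase, rose at 1.25 μg/mL and fell at the top dose, with 448, 1476, 511 and 91.0. FAM177B (704, 428, 463 and 16.8) and OSGEPL1 (502, 475, 334 and 27.0) missed the call of well above background at the top dose. Their signals there were at least 16.5-fold and 11.9-fold lower than at 5 μg/mL. FUT1, a fucosyltransferase gene, had risen from 20.7 on the vehicle control, where it was not well above background, to 418 at 5 μg/mL, and was at least 11.3-fold lower at 20 μg/mL, where it missed that call again.

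By definition, saturating genes had done most of their moving by 5 μg/mL. SMOX, spermine oxidase, had signals of 5340, 41794, 66712 and 77292. GUCA1B, a guanylate cyclase activator, had 35.7, 302, 422 and 367 on the probe used, and its other probe gave 0.90 at the step, past the limit of 0.5. LAT2, an adaptor of immune receptors, had 119, 243, 1192 and 1296. TXNIP, an inhibitor of thioredoxin, went through 34.4, 102, 479 and 346. Of the 494 saturating rises, 407 were past 2-fold above the vehicle control at 20 μg/mL. CLDN2, a claudin of tight junctions, led the saturating falls with 6375, 3364, 403 and 318, and SPDEF, an ETS factor of epithelia, had 1904, 1310, 217 and 166. FBN2 (776, 363, 73.0 and 93.9), MAP2K6 (903, 339, 86.2 and 68.0) and ANXA6 (1386, 662, 160 and 168) followed the same course. A fall can only be followed to the background. Of the 486 saturating falls, 41 had a signal at 5 μg/mL below 2 times the lowest signal well above background at 20 μg/mL, and 270 genes well above background on the vehicle control and at 5 μg/mL were not so at 20 μg/mL. Of 20 heat shock genes measured, 7 were saturating falls. HSPD1 went through 131125, 116225, 62250 and 68338 and HSPB1 through 89938, 64667, 40175 and 43662, while DNAJB2 was the 1 gene of the list past 2-fold at the step (1.21).

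Of 23 genes of cholesterol synthesis and its control, 4 were up-regulated at the step and none down-regulated, with a median of 0.23. HMGCS1, which makes a precursor of cholesterol, had signals of 980, 1083, 1424 and 5271 and rose by 1.89.

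The sodium pump, the known target of cardiac glycosides, moved little at the step. None of its 10 measured genes passed 2-fold, and the median was -0.06. ATP1B1, a beta subunit of the pump that had risen by 0.81 to 5 μg/mL, had signals of 49325, 84838, 86775 and 112862. Of 86 ribosomal protein genes, 0 passed 2-fold, with a median of -0.13. Of 358 zinc finger genes, 29 were up-regulated and 20 down-regulated, against 4.93% and 5.34% of all members. Their median was 0.21, with 225 ratios above 0 and 133 below. Scaling to the 75th percentile gave 29 up-regulated and 34 down-regulated.

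The step from 15 to 60 nM in the helveticoside series shares no array with the EEDS step. The doses are those of an extract and of a compound and are not matched, so values stand side by side. Of 12232 genes well above background at 15 and 60 nM, 385 (3.15%) were up-regulated and 509 (4.16%) down-regulated, together 7.31%. Past 4-fold the shares were 0.147% and 0.302%. Across the 12073 genes measured at both steps, Pearson's r of the log2 ratios was 0.805 and Spearman's rho 0.805, and 81.7% had the same sign. These describe genes, which are not independent, on arrays that were normalized together.

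Of 559 genes up-regulated at the EEDS step and measured in both, 545 had a ratio above 0 at the helveticoside step and 216 (38.6%) were up-regulated there. These 216 were 57.1% of the 378 genes up-regulated by helveticoside and measured in both. Of 626 down-regulated genes, 621 had a ratio below 0 and 307 (49.0%) were down-regulated, which is 61.5% of 499.

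For genes of each EEDS course, the helveticoside step was as follows. Continuing rises had a median helveticoside step of 1.21, and 151 of 151 measured had the sign of the EEDS step. Continuing falls had a median of -1.26 (163 of 163). Late rises had 0.75 (229 of 233) and late falls -0.89 (220 of 221). Genes that rose then fell had -0.90 (37 of 39), and genes that fell then rose had 0.57 (18 of 18). Saturating rises had 0.34, above 0 in 421 of 484 measured, and saturating falls -0.31, below 0 in 344 of 423. From vehicle to 15 nM, before the step, those that rose then fell had a median of 2.01, above 0 in 35 of 35 measured, and those that fell then rose had -1.62, below 0 in 18 of 18. By the same limits, 10 of those 35 and 3 of those 18 took the same course in the helveticoside series as well, as did 52 of 132 continuing rises, 74 of 163 continuing falls, 42 of 224 late rises and 68 of 220 late falls measured on its vehicle control too. The same held for 175 of 443 saturating rises and 164 of 422 saturating falls. The helveticoside series had 43 genes that rose then fell and 43 that fell then rose. Each of these was 0.363% of the 11858 genes measured on its vehicle control and at 15 and 60 nM. Of the same 11858 genes, 0.902% were late rises and 1.51% late falls in the helveticoside series. Continuing rises were 0.717% and continuing falls 1.11%, and saturating rises were 2.48% and saturating falls 2.72%.

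**Figure D4:**
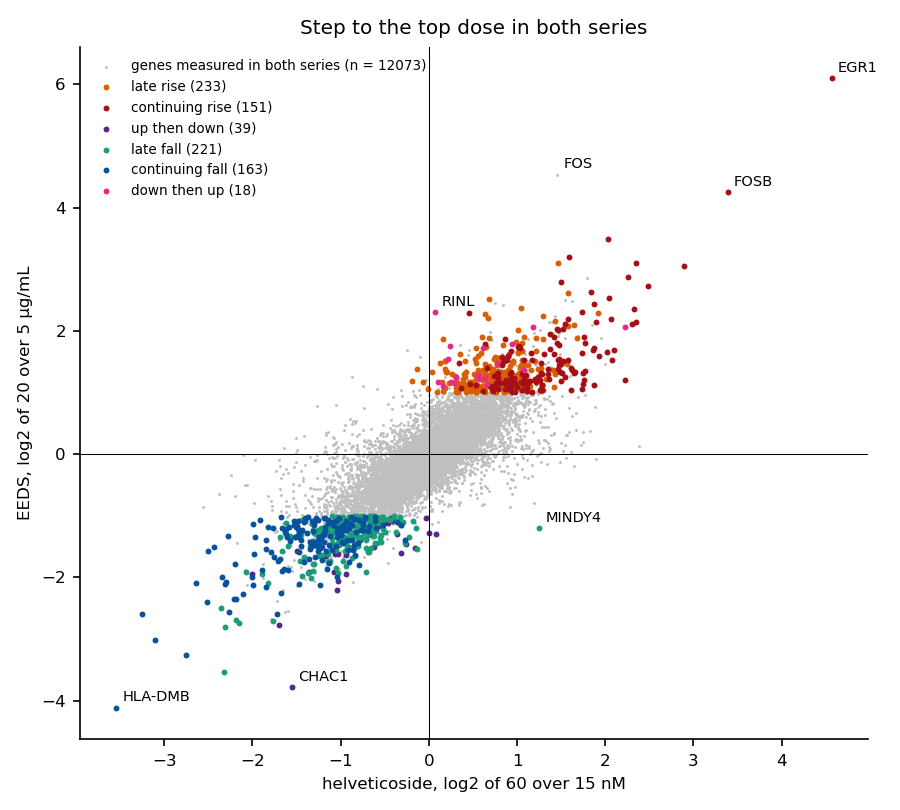
Log2 ratio of 20 over 5 μg/mL EEDS (y axis) against that of 60 over 15 nM helveticoside (x axis), with 1 point per gene for the 12073 genes measured in both series and colors for the EEDS dose courses. Of the continuing genes, 151 of 151 rises and 163 of 163 falls have the same sign at both steps, and MINDY4 is past 2-fold in opposite directions.

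For single genes, EGR1 had a helveticoside step of 4.57, with signals of 66.7, 275, 579 and 13724 on the vehicle control and at 3.75, 15 and 60 nM. CHAC1 had 348, 665, 4917 and 1676, a fall of 1.55 that left it above its vehicle control. HLA-DMB fell by 3.54 and KAT14 by 2.75. The ATF4 list had a median of -0.40 here, with 4 of 23 genes down-regulated and PPP1R15A up-regulated by 2.34, while DDIT3 had 0.45. Immediate early factors had a median of 1.18, with 17 of 28 measured up-regulated. For 60 histone genes and 16 genes of SR proteins and CLK kinases, the median helveticoside step was 0.09 and 0.35. Among single genes, NFKBIA had 1.38 with EEDS and -0.13 with helveticoside, RINL 2.30 and 0.07, and KLF2 1.51 and 0.19. These differences were not tested.

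Promoter letters were counted for genes with an entry in the RefSeq table of GRCh38.p14, in the window from 250 bases before to 50 bases after the start and on both strands. Of 12868 members with a dose course, 10318 had an entry. The ATF4 element was found in 3 of 29 promoters (10.3%) of the genes that rose then fell, against 1.73% of the members and 3.67% of all 27305 promoters. In the ATF4 response list it was in 4 of 20. TGACG, the short form of the cyclic AMP response element, was in 42.1% of the late rises and 39.2% of the continuing rises, 28.5% of the late falls and 30.1% of the continuing falls, against 33.9% of the members and 25.01% of all promoters, in 16 of 23 immediate early factors, and in 3 of 29 genes that rose then fell. Kappa B sites were in 9.72% of the late rises and 8.80% of the continuing rises, in 6.74% of the late falls and 8.90% of the continuing falls, in 3 of 29 genes that rose then fell and in 6.75% of the members (5.72% of all promoters). CXCL1, CXCL2 and CXCL3, which rose, and CXCL5, which did not pass 2-fold, held 2 each. AP-1 sites (TGAGTCA or TGACTCA) were in 7.41% of the late and 8.80% of the continuing rises, 1.55% of the late and 2.05% of the continuing falls and 3.22% of the members (4.92% of all promoters). TATAAA was in 12.96% of the late rises, 12.8% of the continuing rises, 5.70% of the late falls, 4.79% of the continuing falls and 6.45% of the members (11.95% of all promoters). CArG boxes were in 2.78% of the late rises, 1.60% of the continuing rises, 1.55% of the late falls, 0 of 146 continuing falls and 1.03% of the members (1.29% of all promoters). CCAAT was in 36.6% of the late rises, 37.6% of the continuing rises, 38.3% of the late falls, 39.0% of the continuing falls and 36.9% of the members (35.7% of all promoters). A match describes letters only. TGACG can overlap the other motifs, and a motif outside this window was not counted.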

How the data were processed

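Each of the 8 arrays (Agilent, whole human genome, 1 dye) stands for 1 condition. For every spot the authors deposited intensity values made with Feature Extraction (version not given in the sources used here), which comprise a scanned signal, a local background, a processed signal with the background subtracted and flags. A deposited table of processed intensity values, quantile-normalized by the authors' methods, was used as an alternative. No per-sample column was left unmapped.

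Processed signals of usable probe spots (no control or outlier spot) were averaged per probe, and all 8 arrays were quantile-normalized jointly before taking log2 with no pseudocount. By accession, 24809 of 34105 probes matched a gene of RefSeq (GRCh38.p14). Each gene was read from its brightest probe over the arrays, which counted as well above background when the majority of its usable spots had that flag. A gene with the flag on 1 of both arrays has a bound, against the higher of its own signal and the lowest signal well above background on the dimmer array. The rule for dose courses was run on simulated data with large changes planted only in brighter genes. Changes of dim genes and changes near the limits were not covered.

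Members, courses, gene lists and motifs were chosen with earlier results of these data known. Named are the 10 largest rises and falls, 6 genes per course and direction (by the step for late and continuing, by the change at 5 μg/mL for saturating, by the smaller change for reversing genes), genes of 5 lists (sodium pump, ATF4 response, immediate early factors, heat shock, chemokines: up to 8 past 2-fold and 3 others by signal), the 3 largest bounds per direction, and genes past 2-fold in opposite directions in both series. All other genes were named after their values were seen. Some genes that this rule names are not reported here. Python 3.11.15, numpy 2.4.6, pandas 2.3.3, and R 4.3.3 with limma 3.58.1 (for normexp) were used.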

Additional observations from a re-analysis of the deposited data

Results flagged for a closer look

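MINDY4, a gene for a deubiquitinase, was the 1 gene of 12073 that passed 2-fold in opposite directions at both steps. Its log2 ratio was -1.20 from 5 to 20 μg/mL EEDS (signals of 105.9, 64.3, 103.7 and 45.1 on the vehicle control and at the rising doses) and 1.25 from 15 to 60 nM helveticoside (46.6, 8.19, 49.2 and 117). The difference was not tested, since each dose has 1 array. Its other probe gave -0.63 at the EEDS step, and with the signal as scanned the probe used gave -0.59.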

How the results depend on the processing

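No paired analysis was possible because each dose has 1 array. For the 84 named genes, 756 values were recomputed under other settings, and 0 changed direction where 2-fold had been passed. Of 513 values of genes past 2-fold, 502 stayed past it. The exceptions were EFNB3 (0.65 to 0.97), CXCL3 (0.60 to 0.97), MINDY4 (-0.59 to -0.92) and, with the mean of the probes, HNRNPDL (0.98). Of 145 counts and correlations, 88 stayed within their limits. The others follow, as rises and falls past 2-fold, then past 4-fold, then the courses, then r with the helveticoside step. With the signal as scanned there were 414 and 377, then 37 and 18, with 129 late falls, 90 continuing falls, 25 genes that rose then fell, 8 that fell then rose and r of 0.817. With normexp and an offset of 50 there were 421 and 381, then 37 and 19, with 130, 90, 25 and 8 in the same courses and r of 0.816. Scaling to the 75th percentile moved the median step to -0.08 and gave 678 rises and 976 falls, 95 falls past 4-fold and r of 0.813, so rises were 41.0% of the calls in place of 48.0%. The authors' table gave 41 genes that fell then rose and r of 0.791. A detection limit of 1.4 times the local background gave 1024 and 1106, then 167 and 132, with 488 late rises, 780 saturating falls, 186 genes that rose then fell, 85 that fell then rose and r of 0.517. With no detection filter and floored signals, 85 genes rose then fell and r was 0.709. At 1.5-fold there were 1870 rises and 1896 falls, with late 884 and 780, continuing 612 and 736, saturating 1358 and 1244, and reversing 222 and 188 (rose then fell first). At 3-fold there were 140 and 143, with late 38 and 35, continuing 26 and 25, saturating 123 and 126, and reversing 9 and 3. A limit of 0.3 for not moved gave late 162 and 136 and saturating 309 and 314. Of the reversing genes, 25 of the 46 that rose then fell and 8 of the 24 that fell then rose were shared with the signal as scanned. Background limits how far a fall can be followed, and no value covers the spread between cultures.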
